A study of Danio rerio with 6 samples.

Results

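The interferon response and antigen presentation genes form a module of 50 named zebrafish genes, compared here between injured hearts given a gamma secretase inhibitor and injured hearts given its carrier. Members were found by gene name, ignoring case and with or without the a or b letter of a paralog. Of the 50 names, 40 had a row in the table, and they stand for 41 of its 14211 gene IDs: 15 antiviral effectors, 16 signal transducers and 10 genes of peptide loading. The rule went by name and not by measured values, but the list of names was drawn up with earlier results of these data known. The names irf1a, ifit8, ifit10, ifit14, trim25, dtx3la, parp9, gbp4, tbk1 and nmi were not analysed here.

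All fish were adults of the AB strain, and all had a heart cryoinjury, made by freezing a patch of the ventricle. The RO group received RO, a gamma secretase inhibitor, by peritoneal injection at 24 h and again at 48 h after injury, and the DMSO group received the carrier at the same times. Each library is polyA RNA from the ventricle apex of 3 pooled hearts taken at 72 h, with 3 libraries of RO hearts (replicates 2, 3 and 4) and 3 libraries of DMSO hearts (replicates 1, 2 and 3). The inhibitor was given to the whole animal, so it could reach every cell type, and gamma secretase cuts many membrane proteins besides Notch receptors. Notch cleavage was not measured, and no uninjured or uninjected heart was analysed here. The labels do not say whether the pools came from separate experiments, so p-values measure the spread between these pools.

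Interferons are cytokines released when cells sense foreign or misplaced nucleic acid. They bind receptors whose JAK kinases phosphorylate STAT factors such as STAT2, which act with IRF9 and switch on interferon-stimulated genes, among them antiviral effectors, the sensors themselves and feedback inhibitors. The same signal raises the immunoproteasome, the TAP peptide transporter and the class I molecules that show peptides to T cells. In mice, interferon-stimulated genes are known to be switched on in leukocytes of the infarcted heart.

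Reads recovered from the deposited values summed to 3306018 to 4463303 per library over the gene IDs of the table. The values are those reads scaled per library to about the size of CPM. The number of reads sequenced per library was not analysed here. Values are not divided by gene length, so levels are compared between groups and not between genes. Members held from 73 to 12823 reads over the 6 libraries, and 38 of the 41 had a mean value of at least 5. As a check of the tissue label, the summed value of 11 cardiomyocyte marker IDs was 44732 to 56942 in RO libraries and 50161 to 60884 in DMSO libraries. Markers of fibroblast and epicardium (10 IDs) summed to 3969 to 6139 in RO libraries and 6699 to 7698 in DMSO libraries. In 7 of these 10 IDs every RO library lay below every DMSO library, against 9.35% of all genes. The part of these cells in the values of the module was not tested. No marker with a row was at 0 in any library, but every row of the table reached 1.97 in at least 3 libraries. Listed markers without a row, among them csf1ra, csf1rb and kdrl, could not be checked.

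No member of the module passed the threshold, an adjusted p under 0.05 in limma with Benjamini-Hochberg adjustment over all genes. In the same fit 147 of 14211 genes passed (1.03%), 92 higher (0.647%) and 55 lower (0.387%) in RO. That count was 95 without RO replicate 2, 52 without RO replicate 3, 59 without DMSO replicate 1, 22 without DMSO replicate 2, 1 in limma without a trend and 240 with DESeq2. The count of members was 0 without each library in turn and 1 with array weights in limma. With a replicate block in limma 405 genes and 4 members passed, but whether the replicate numbers pair the libraries could not be decided. The smallest adjusted p of a member was 0.0744, for pkz. With edgeR and with DESeq2 on the recovered reads 0 members passed as well, beside 1.1% and 1.69% of all genes, with smallest adjusted p-values of 0.0725 and 0.0567. At an unadjusted p under 0.05 in limma there were 10 members, all with the higher mean in RO (24.4%), beside 6.79% of all genes in that direction. At an unadjusted p under 0.05, edgeR gave 9 members, beside 13.4% of all genes, and DESeq2 gave 8, beside 8.2%.

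Counted by library, 10 members had all 3 RO libraries above all 3 DMSO libraries (24.4%, against 9.32% of all genes). Among them were pkz, RSAD2, parp14rs1, mxe, isg15, mxa, SAMHD1, IRF7 and irf3. In SAMHD1 the nearest libraries of the groups were 4.75 in RO and 4.65 in DMSO, on 17 and 18 reads. They were 17.03 and 17.02 in IRF7 (70 reads each), and 10.951 and 10.939 in irf3 (45 reads each). In 1 member, tap2a, all RO libraries lay below all DMSO libraries (2.44%, against 9.35% of all genes). The log2 difference, RO minus DMSO on log2(value + 0.5), was above 0 in 29 members (70.7%, against 48.4% of all genes), and its median was 0.15, against -0.01 over all genes. Members were measured in the same pools and can move together, so these counts are not counts of independent observations. In pooled tissue, a change in the number of cells of a type and a change in RNA per cell cannot be told apart.

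The roles differed in where these genes lay. Antiviral effectors had a median log2 difference of 0.41 and 12 of 15 above 0, signal transducers 0.07 with 10 of 16 above 0, and peptide loading genes 0.08 with 7 of 10 above 0. Without DMSO replicate 1 the median of the peptide loading genes was -0.0402, and without RO replicate 3 or DMSO replicate 2 it was 0.15 and 0.18. The median of the transducers was 0.11 without RO replicate 3 and 0.13 without DMSO replicate 2. The difference between roles was not tested.

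**Figure D1:**
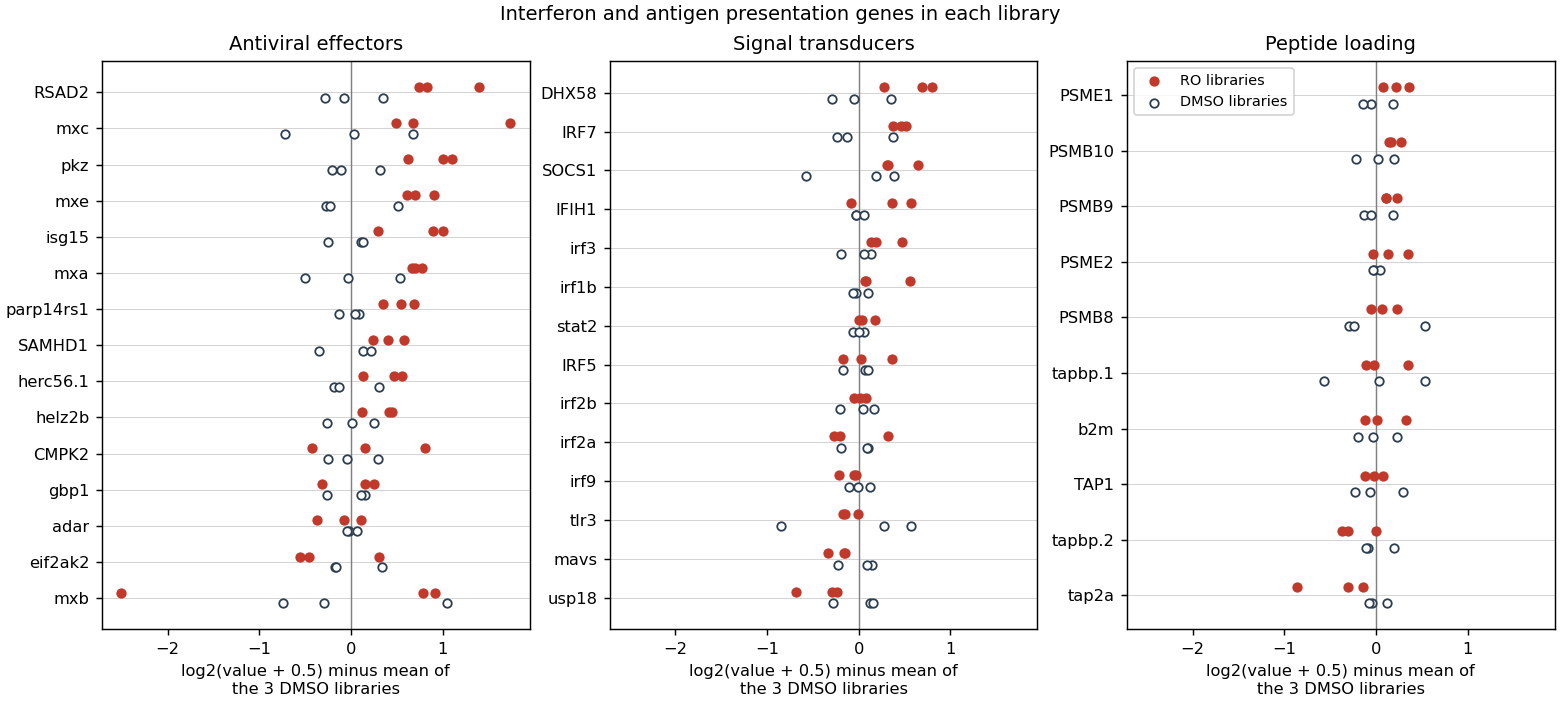
Values of 39 of the 41 genes in each library, as log2(value + 0.5) minus the mean of the 3 DMSO libraries (x axis, log2 units), by role; filled points are RO libraries and open points are DMSO libraries. Points of the groups separate in 7 antiviral effectors, in 2 of the signal transducers shown, and in tap2a alone of the peptide loading genes. In SAMHD1, IRF7 and irf3 the groups are separated only by a narrow gap.

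The antiviral effectors were the role with the widest differences, from -0.27 to 0.99 on the log2 scale. Groups did not overlap in 7 of the 15, all with RO above DMSO (46.7%, against 9.32% of all genes), and 7 of 15 had an unadjusted p under 0.05 with the higher mean in RO (46.7%, against 6.79%). None passed the adjusted threshold. The groups of SAMHD1 were separated only by the narrow gap between 4.75 in RO replicate 2 and 4.65 in DMSO replicate 2. All effectors were measured in the same pools and can move together, so the 7 genes are not 7 independent observations. The median residual SD of the effectors was 0.31 log2 units, against 0.24 over all genes.

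Pkz (ENSDARG00000052396) is a kinase of fish that carries Z-DNA binding domains and is related to the kinase PKR, which stops translation when double-stranded RNA is present. It had values of 14.2, 18.6 and 19.95 in RO libraries 2, 3 and 4, against 11.4, 7.74 and 8.34 in DMSO libraries 1, 2 and 3. Every RO library lay above every DMSO library. The means were 17.6 ± 2.99 in RO and 9.17 ± 1.98 in DMSO (SD, n = 3 each), a log2 difference of 0.91 (95% interval 0.45 to 1.37; 1.88-fold; limma adjusted p = 0.0744). With array weights, which give libraries unequal weight, its adjusted p was 0.0427. Between 28 and 85 reads per library stand behind these values. The related kinase gene eif2ak2 (ENSDARG00000068729), which encodes PKR itself, averaged 4.84 ± 1.88 in RO and 5.64 ± 1.31 in DMSO, with a log2 difference of -0.23 (limma adjusted p = 0.80).

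RSAD2 (ENSDARG00000004952) encodes viperin, an enzyme that makes a chain-terminating nucleotide and so hinders viral polymerases. Its values were 7.26, 6.79 and 10.95 in RO libraries and 3.65, 3.10 and 5.06 in DMSO libraries. The lowest RO library stood above the highest DMSO library, on 26 to 45 reads per RO library and 12 to 17 reads per DMSO library. The log2 difference was 0.99 (0.38 to 1.6; 1.98-fold; limma adjusted p = 0.136), the widest in the module. CMPK2 (ENSDARG00000031359), a mitochondrial nucleotide kinase that feeds the same reaction, averaged 6.19 ± 2.84 in RO and 5.13 ± 1.09 in DMSO. Its groups overlapped and its log2 difference was 0.18 (limma adjusted p = 0.866).

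The Mx proteins are dynamin-like GTPases that trap viral nucleocapsids, and 4 mx genes had a row. Mxa (ENSDARG00000021688) had 35.2, 33.3 and 32.6 in RO libraries, against 29.7, 19.9 and 14.3 in DMSO libraries. Mxe (ENSDARG00000014427) had 19.8, 18.6 and 22.9 in RO libraries, against 17.3, 9.81 and 10.1 in DMSO libraries. In both genes the RO libraries lay close together and above DMSO replicate 1, which itself stood well above DMSO replicates 2 and 3. The log2 differences were 0.71 (0.22 to 1.2; limma adjusted p = 0.177) for mxa and 0.74 (0.25 to 1.23; adjusted p = 0.163) for mxe. Mxc (ENSDARG00000024789) had 13.7, 5.47 and 6.33 in RO libraries and 6.32, 3.87 and 2.08 in DMSO libraries, so the groups overlapped, with a log2 difference of 0.97 (0.08 to 1.86; adjusted p = 0.326).

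Mxb (ENSDARG00000004953) had the widest interval of the module. It held 0, 20 and 20 reads in RO libraries 2, 3 and 4 and 22, 7 and 4 reads in DMSO libraries 1, 2 and 3. Its log2 difference of -0.27 had an interval of -2.08 to 1.54 and turned to 0.16 with edgeR and 0.15 with DESeq2. Reads of close paralogs can be assigned to the wrong copy, so the 4 genes were also summed: the sum was 68.7, 61.8 and 66.7 in RO libraries and 58.6, 35.4 and 27.7 in DMSO libraries. RO libraries thus lay above DMSO libraries in the sum as well, 65.7 ± 3.57 in RO against 40.5 ± 16.1 in DMSO, a ratio of 1.62.

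Isg15 (ENSDARG00000086374) encodes a small modifier that resembles ubiquitin and is attached to other proteins. It had 19.8, 18.4 and 11.9 in RO libraries, against 10.5, 10.6 and 8.04 in DMSO libraries. The groups did not overlap, though RO replicate 4 stood nearer to the DMSO libraries than to the other RO libraries, and the log2 difference was 0.73 (0.24 to 1.22; limma adjusted p = 0.169). Herc56.1 (ENSDARG00000075785) belongs to the HERC ligases, whose human member HERC5 attaches ISG15. Its means were 12.22 ± 1.90 in RO and 9.25 ± 1.89 in DMSO, with a log2 difference of 0.39 (adjusted p = 0.482). Usp18, the protease that removes ISG15, is described with the transducers.

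Parp14rs1 (ENSDARG00000040445) is a fish relative of PARP14, an ADP-ribosyltransferase of interferon-treated cells in humans. Its values were 21.5, 27.16 and 24.6 in RO libraries and 17.7, 17.3 and 15.2 in DMSO libraries. Both groups were tight and did not overlap, with a log2 difference of 0.53 (0.18 to 0.87; 1.44-fold; limma adjusted p = 0.158). SAMHD1 (ENSDARG00000071288), which breaks down deoxynucleotides, averaged 5.41 ± 0.694 in RO and 3.999 ± 0.896 in DMSO, with a log2 difference of 0.41 (adjusted p = 0.579). Helz2b (ENSDARG00000012600), a helicase gene, averaged 35.9 ± 4.40 in RO and 28.7 ± 5.14 in DMSO, with a log2 difference of 0.33 (adjusted p = 0.431).

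Adar and gbp1 had log2 differences near 0. Adar (ENSDARG00000012389) encodes the enzyme that edits adenosine in double-stranded RNA, which keeps a cell's own RNA from triggering the sensors. It had 46.1, 64.4 and 56.7 in RO libraries and 58.8, 57.8 and 62.8 in DMSO libraries. RO libraries lay on both sides of the DMSO range, and the log2 difference was -0.11 (-0.42 to 0.19; limma adjusted p = 0.79). Gbp1 (ENSDARG00000038668), a guanylate-binding GTPase that coats intracellular bacteria and is induced chiefly by interferon gamma in mammals, had 41.3, 29.8 and 44.5 in RO libraries and 41.3, 31.0 and 40.2 in DMSO libraries. Its groups covered nearly the same range, with a log2 difference of 0.03 (-0.36 to 0.42; adjusted p = 0.965).

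**Figure D2:**
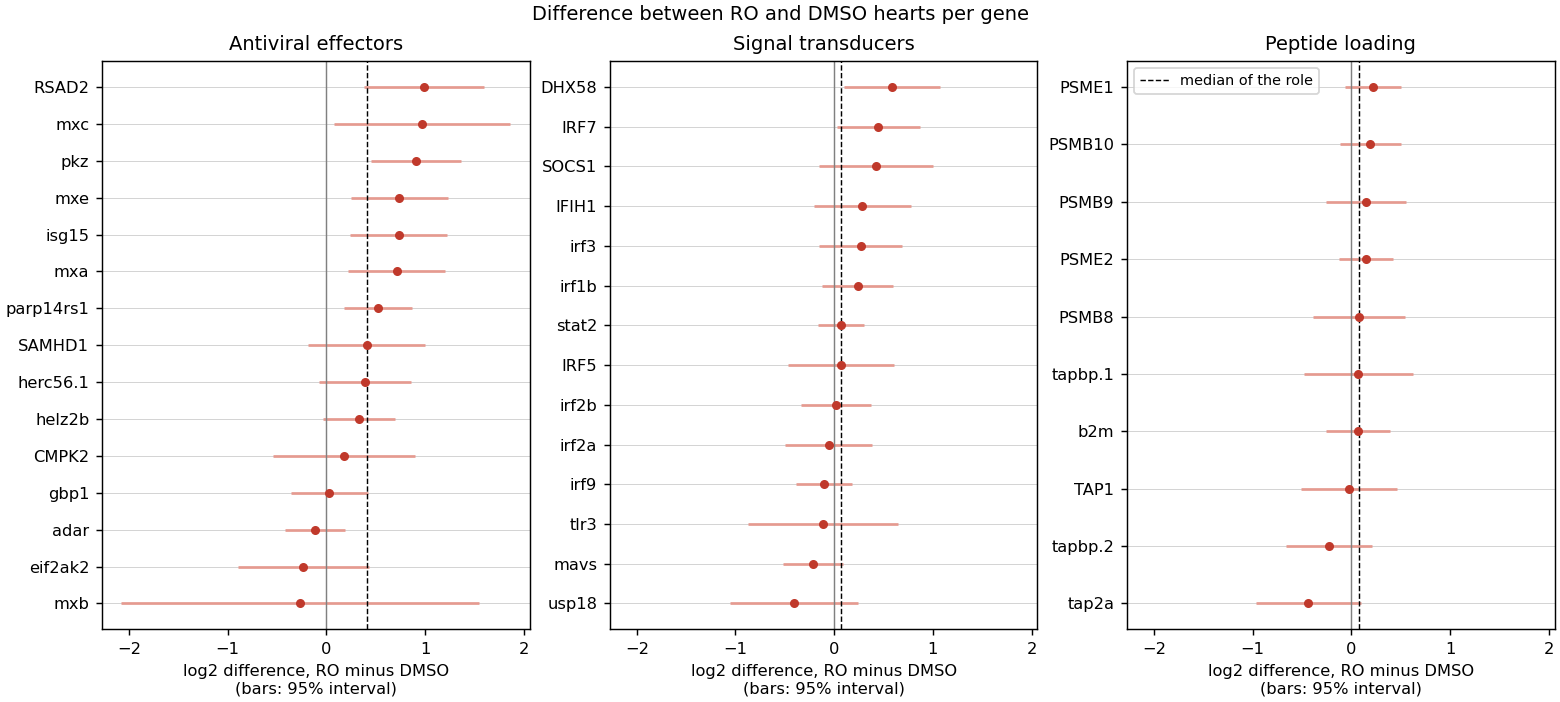
Log2 difference, RO minus DMSO (x axis, log2 units), of 39 of the 41 genes by role; points are limma estimates, bars their 95% intervals, and dashed lines the median over all measured genes of the role. The median is 0.41 for antiviral effectors, 0.07 for signal transducers and 0.08 for peptide loading, and no gene passes the adjusted threshold.

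Among the 16 signal transducers the log2 differences ran from -0.41 to 0.58. In 3 of them all RO libraries lay above all DMSO libraries (18.8%, against 9.32% of all genes), and 3 had an unadjusted p under 0.05, all with the higher mean in RO (18.8%, against 6.79%). None passed the adjusted threshold. In IRF7 and irf3 the nearest RO and DMSO libraries had equal reads, 70 each and 45 each.

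The sensors come first in the pathway. DHX58 (ENSDARG00000089463) encodes LGP2 and IFIH1 (ENSDARG00000018553) encodes MDA5, helicases that bind viral RNA in the cytoplasm; LGP2 modulates the signal of MDA5. DHX58 had 11.7, 15.8 and 17.0 in RO libraries, against 12.4, 7.74 and 9.23 in DMSO libraries, with a log2 difference of 0.58 (0.10 to 1.07; 1.5-fold; limma adjusted p = 0.283). RO replicate 2 fell within the DMSO range, so the groups overlapped. IFIH1 averaged 9.65 ± 2.25 in RO and 7.69 ± 0.306 in DMSO, with a log2 difference of 0.29 (adjusted p = 0.642). Tlr3 (ENSDARG00000016065), the endosomal sensor of double-stranded RNA, averaged 5.28 ± 0.363 in RO and 6.27 ± 2.98 in DMSO, with a log2 difference of -0.11 (adjusted p = 0.927). Mavs (ENSDARG00000069733), the mitochondrial adaptor through which MDA5 signals, had means of 43.3 ± 3.13 in RO and 50.6 ± 6.85 in DMSO, with a log2 difference of -0.22 (adjusted p = 0.56).

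The IRF factors are activated by the sensors or made in response to interferon. IRF7 (ENSDARG00000045661), which drives the later wave of interferon genes, had 18.2, 18.8 and 17.03 in RO libraries, against 17.02, 11.9 and 11.02 in DMSO libraries. The groups were separated only by the narrow gap between RO replicate 4 and DMSO replicate 1, and the log2 difference was 0.45 (0.03 to 0.87; 1.36-fold; limma adjusted p = 0.336). Irf3 (ENSDARG00000076251), which acts before IRF7, averaged 12.101 ± 1.63 in RO and 9.97 ± 1.19 in DMSO, with a log2 difference of 0.27 (adjusted p = 0.613). Irf1b (ENSDARG00000043249), an activator, averaged 29.5 ± 6.16 in RO and 24.6 ± 1.49 in DMSO, with a log2 difference of 0.24 (adjusted p = 0.60).

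The remaining IRF factors lay near 0. Irf2a (ENSDARG00000007387) and irf2b (ENSDARG00000040465), whose mammalian counterpart opposes IRF1, had log2 differences of -0.05 and 0.02. Their means were 14.2 ± 3.45 in RO and 14.6 ± 1.66 in DMSO for irf2a, and 17.6 ± 0.82 in RO and 17.4 ± 2.27 in DMSO for irf2b. IRF5 (ENSDARG00000045681), a factor of myeloid cells in mammals, averaged 6.14 ± 1.28 in RO and 5.78 ± 0.623 in DMSO, with a log2 difference of 0.07.

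STAT2 and IRF9 are subunits of the complex that enters the nucleus after type I interferon binds. Stat2 (ENSDARG00000031647) had 193, 218 and 199 in RO libraries and 201, 185 and 194 in DMSO libraries, which overlapped, with a log2 difference of 0.07 (-0.16 to 0.30; limma adjusted p = 0.831). Irf9 (ENSDARG00000016457) averaged 36.3 ± 2.45 in RO and 39.0 ± 3.15 in DMSO, with a log2 difference of -0.10 (adjusted p = 0.80).

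Feedback inhibitors close the loop. SOCS1 (ENSDARG00000038095) blocks the JAK kinases. It had 12.01, 9.42 and 9.49 in RO libraries, against 9.97, 4.90 and 8.63 in DMSO libraries, and the groups overlapped, with a log2 difference of 0.42 (limma adjusted p = 0.55). Usp18 (ENSDARG00000088078), which also silences the type I receptor in mammals, averaged 3.10 ± 0.579 in RO and 4.27 ± 0.754 in DMSO. It rested on 10 to 18 reads per library, and its groups overlapped. Its log2 difference of -0.41 (-1.06 to 0.24, limma adjusted p = 0.616) was the lowest of the transducers, while its partner in ISG15 chemistry, isg15 itself, was at 0.73. Usp18 and isg15 were not tested against each other.

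Peptide loading covers the steps that bring peptides onto class I molecules: cutting by the immunoproteasome, transport by TAP, editing by tapasin and assembly with beta-2 microglobulin. All 10 listed genes were measured. At an unadjusted p under 0.05 there were 0 of the 10 in limma, 0 in edgeR and 0 in DESeq2, and the smallest limma adjusted p was 0.492. Log2 differences ran from -0.43 to 0.22, and the 95% intervals of all 10 genes lay between -0.97 and 0.62. The median residual SD was 0.19 log2 units, less than the 0.31 of the effectors.

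The immunoproteasome replaces the catalytic subunits of the standard proteasome when interferon gamma is present. PSMB10 (ENSDARG00000043781) had 40.2, 44.2 and 40.9 in RO libraries and 37.2, 41.8 and 31.3 in DMSO libraries, which overlapped, with a log2 difference of 0.19 (limma adjusted p = 0.625). PSMB9 (ENSDARG00000000656) averaged 11.06 ± 0.584 in RO and 9.95 ± 1.21 in DMSO, with a log2 difference of 0.15 (adjusted p = 0.79). PSMB8 (ENSDARG00000001303) averaged 25.8 ± 2.54 in RO and 25.2 ± 8.81 in DMSO, with a log2 difference of 0.08 (adjusted p = 0.916). The 3 subunits summed to 78.6 ± 1.36 in RO and 71.9 ± 12.9 in DMSO, a ratio of 1.09, with overlapping groups.

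PSME1 and PSME2 form the PA28 cap, which opens the proteasome. PSME1 (ENSDARG00000002165) had 106, 95.9 and 116 in RO libraries and 87.3, 103 and 82.2 in DMSO libraries, with a log2 difference of 0.22 (-0.06 to 0.50; limma adjusted p = 0.506). PSME2 (ENSDARG00000033144) had 107, 81.9 and 92.0 in RO libraries and 82.7, 87.0 and 82.5 in DMSO libraries, with a log2 difference of 0.15 (adjusted p = 0.67). The groups overlapped in both genes.

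Tap2a (ENSDARG00000036787) is 1 of the subunits of the TAP pump that carries peptides into the endoplasmic reticulum. Its values were 4.47, 7.66 and 6.81 in RO libraries, against 8.27, 9.29 and 8.04 in DMSO libraries. It was the 1 member in which every RO library lay below every DMSO library, on 16 to 35 reads per RO library and 27 to 36 reads per DMSO library, with a log2 difference of -0.43 (-0.97 to 0.10; limma adjusted p = 0.492). TAP1 (ENSDARG00000079766), the other subunit, averaged 7.55 ± 0.546 in RO and 7.76 ± 1.59 in DMSO, with a log2 difference of -0.02 (0.018 with quantile scaling; adjusted p = 0.978). A further transporter gene outside the module, tap2t (ENSDARG00000033446), had 16.8, 17.3 and 16.3 in RO libraries and 12.9, 11.098 and 13.7 in DMSO libraries, a log2 difference of 0.41 (adjusted p = 0.305); it was singled out after its values were seen. The groups of tap2t did not overlap, in the direction opposite to tap2a.

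Tapasin holds the empty class I molecule beside TAP. Tapbp.1 (ENSDARG00000079402) averaged 21.3 ± 3.85 in RO and 21.0 ± 7.91 in DMSO, with a log2 difference of 0.07 (limma adjusted p = 0.936). Tapbp.2 (ENSDARG00000045011) averaged 9.36 ± 1.39 in RO and 11.03 ± 1.40 in DMSO, with a log2 difference of -0.23 (adjusted p = 0.682). B2m (ENSDARG00000053136), the light chain that every class I molecule needs, had 531, 483 and 659 in RO libraries and 459.7, 616 and 514 in DMSO libraries. It rests on 1727 to 2710 reads per library, its groups overlapped, and its log2 difference was 0.07 (-0.25 to 0.40; adjusted p = 0.887).

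**Figure D3:**
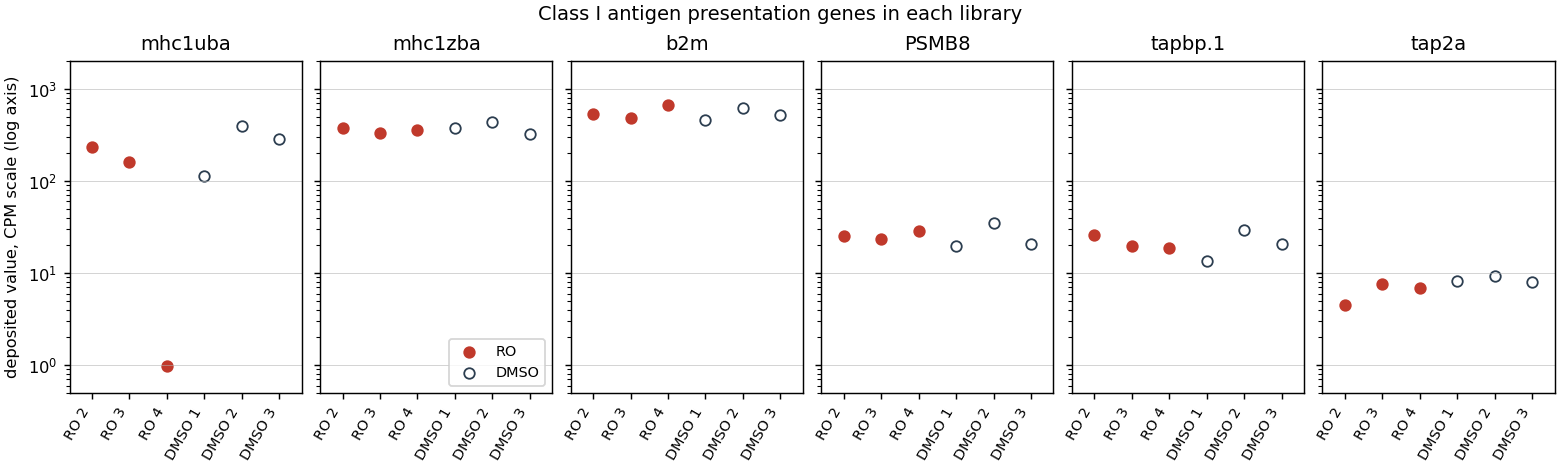
Deposited values (y axis, CPM scale, log axis) of the class I heavy chain genes mhc1uba and mhc1zba and of b2m, PSMB8, tapbp.1 and tap2a in each of the 6 libraries (x axis); filled points are RO and open points DMSO. Mhc1uba ranges from 0.973 to 395 over the 6 libraries, whereas b2m stays between 459.7 and 659.

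Genes of the pathway outside the module were taken from 7 lists of 175 names, with 90 measured IDs. Of these 90, 2 passed the threshold higher in RO, beside 0.647% of all genes, and 0 passed lower, beside 0.387%. No gene passed among 8 receptors and kinases (of 23 names listed), 11 other STAT and IRF factors and 8 other sensors and adaptors (of 28). Nor did any of 15 class I genes and 18 genes of the constitutive proteasome. The interferon genes ifnphi1, ifnphi2, ifnphi3, ifng1 and ifng1r were listed with the receptors but had no row, so they were not analysed here. Of 22 other interferon-induced genes 1 passed, and of 8 class II genes 1 passed. With DESeq2 on the recovered reads 3 of the 22 and 1 of the 8 passed, beside 1.69% of all genes. Each list's median stands beside -0.01 over all genes.

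Both genes that passed encode lysosomal enzymes of class II antigen processing. Ctss2.1 (ENSDARG00000074656), a cathepsin S gene, encodes a protease that in mammals trims the invariant chain off class II molecules. It had 161, 186 and 119 in RO libraries, against 85.6, 75.6 and 72.3 in DMSO libraries. It rose to 155 ± 33.99 in RO, against 77.8 ± 6.89 in DMSO, a log2 difference of 0.97 (0.62 to 1.32; 1.96-fold; limma adjusted p = 0.0208). The call was lost without RO replicate 3 (adjusted p = 0.0789), DMSO replicate 2 (0.0949) or DMSO replicate 3 (0.0635), and in limma without a trend (0.163). Its paralog ctss2.2 (ENSDARG00000013771), named after its values were seen, did not pass. It had 66.5, 68.1 and 53.0 in RO libraries and 51.5, 57.0 and 19.1 in DMSO libraries, and the groups overlapped. The log2 difference of ctss2.2 was 0.69 (limma adjusted p = 0.394), and 0.20 to 0.97 with 1 library left out.

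Ifi30a (ENSDARG00000056378) encodes GILT, a thiol reductase that unfolds proteins for class II loading and is induced by interferon gamma in mammals. It had 119.5, 125 and 88.1 in RO libraries, against 59.1, 74.1 and 54.5 in DMSO libraries. It rose to 111 ± 19.9 in RO, against 62.5 ± 10.2 in DMSO, a log2 difference of 0.82 (0.46 to 1.17; 1.76-fold; limma adjusted p = 0.0435). Without RO replicate 2 or 3 or any 1 of the DMSO libraries the adjusted p lay between 0.0663 and 0.164, so the call was lost without any of these, and likewise with quantile scaling (0.0534) or in limma without a trend (0.189). In both genes that passed, RO replicate 4 was the lowest of the RO libraries.

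The other class II genes did not pass. Cd74a (ENSDARG00000009087), 1 of the invariant chain genes, averaged 76.8 ± 3.65 in RO and 61.1 ± 23.3 in DMSO (log2 difference 0.39, limma adjusted p = 0.473). Cd74b (ENSDARG00000036628) averaged 66.3 ± 3.78 in RO and 57.6 ± 19.97 in DMSO (0.25, adjusted p = 0.646), and the class II chain mhc2dab (ENSDARG00000079105) 46.6 ± 4.55 in RO and 44.8 ± 14.0 in DMSO (0.09, adjusted p = 0.884). These 3 genes were singled out after their values were seen. In each, DMSO replicate 2 stood above all other libraries and the remaining DMSO libraries stood below the RO range. The median log2 difference of the 8 class II genes was 0.26.

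The receptors and kinases that carry the signal had 2 of 8 genes above 0 and a median log2 difference of -0.09. JAK1 (ENSDARG00000020625), the kinase shared by the interferon receptors, averaged 217 ± 43.4 in RO and 219 ± 24.6 in DMSO, and the interferon gamma receptor chain ifngr2 (ENSDARG00000067795) 41.5 ± 7.47 in RO and 39.0 ± 6.89 in DMSO. Among other STAT and IRF factors, with a median of -0.04, STAT3 (ENSDARG00000022712) averaged 77.4 ± 20.9 in RO and 73.5 ± 14.0 in DMSO. STAT4 (ENSDARG00000028731) averaged 76.6 ± 21.4 in RO and 76.5 ± 4.80 in DMSO. Groups overlapped in all 4 genes. The other sensors and adaptors had a median of 0.05, with IKBKE (ENSDARG00000070606), a kinase of IRF factors, at 25.1 ± 3.54 in RO and 20.2 ± 2.29 in DMSO and UNC93B1 (ENSDARG00000069114), which escorts endosomal receptors, at 13.1 ± 1.96 in RO and 15.3 ± 0.63 in DMSO.

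Class I genes outside the module had a median log2 difference of 0.14. Mhc1zba (ENSDARG00000036588), a class I heavy chain gene, averaged 355 ± 19.2 in RO and 377 ± 56.09 in DMSO, and CANX (ENSDARG00000037488), the chaperone calnexin, 360 ± 35.0 in RO and 317 ± 32.4 in DMSO. The constitutive proteasome genes had a median of 0.12 with 15 of 18 above 0, close to the 0.08 of the interferon-linked peptide loading genes. Of these, PSMA8 (ENSDARG00000010965) averaged 149 ± 19.3 in RO and 134 ± 3.90 in DMSO, and the proteasome activator PSME4 (ENSDARG00000018742) 135 ± 23.0 in RO and 144 ± 7.39 in DMSO.

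The other interferon-induced genes had a median log2 difference of 0.09, with 14 of 22 above 0. Chosen after their values were seen, ifi27.1 (ENSDARG00000017489) had 127, 73.6 and 150 in RO libraries and 68.1, 81.3 and 45.3 in DMSO libraries, with a log2 difference of 0.82 (limma adjusted p = 0.184). Ifi27.2 (ENSDARG00000039243) had 146, 53.2 and 190 in RO libraries and 73.7, 44.4 and 46.7 in DMSO libraries, with a log2 difference of 1.08 (adjusted p = 0.233). In both, RO replicate 3 fell within the DMSO range, while in pkz and parp14rs1 it lay above it. SOCS3 (ENSDARG00000025428), a feedback inhibitor of cytokine receptors that also answers interleukin-6, had 420, 487 and 338 in RO libraries and 798, 586 and 517 in DMSO libraries. Its groups did not overlap, with a log2 difference of -0.60 (adjusted p = 0.152), opposite in sign to the 0.42 of SOCS1. A second SOCS3 ID (ENSDARG00000026611) had 131, 134 and 130 in RO libraries and 341, 156 and 121 in DMSO libraries. In this ID the groups overlapped, with a log2 difference of -0.50 (limma adjusted p = 0.508). With 1 library left out that difference was -0.80 to -0.06. Both SOCS3 IDs were also chosen after their values were seen.

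The libraries differed within groups. The mean log2 deviation of the 15 effectors from their mean over the 6 libraries was 0.03, 0.26 and 0.35 in RO libraries 2, 3 and 4, and 0.07, -0.30 and -0.40 in DMSO libraries 1, 2 and 3. RO replicate 2 was low on this summary through mxb, which had 0 reads there and 22 in DMSO replicate 1. Over the other 14 effectors, an alternative added after the data were seen, the deviations were 0.20, 0.21 and 0.30 in RO and -0.01, -0.31 and -0.38 in DMSO. The summed values of all 15 effectors were 283, 287 and 306 in RO libraries and 263, 214 and 213 in DMSO libraries, which did not overlap. Among the 3 DMSO libraries, replicate 1 had the highest value in 10 of 15 effectors and 9 of 16 transducers, against 32.0% of all genes. Peptide loading had another order: DMSO replicate 2 was the highest DMSO library in 7 of 10 genes, against 34.8% of all genes, and mean deviations were 0.01, -0.05 and 0.07 in RO and -0.13, 0.14 and -0.05 in DMSO. The transducers lay between 0.02 and 0.11 in RO and between -0.13 and 0.04 in DMSO.

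**Figure D4:**
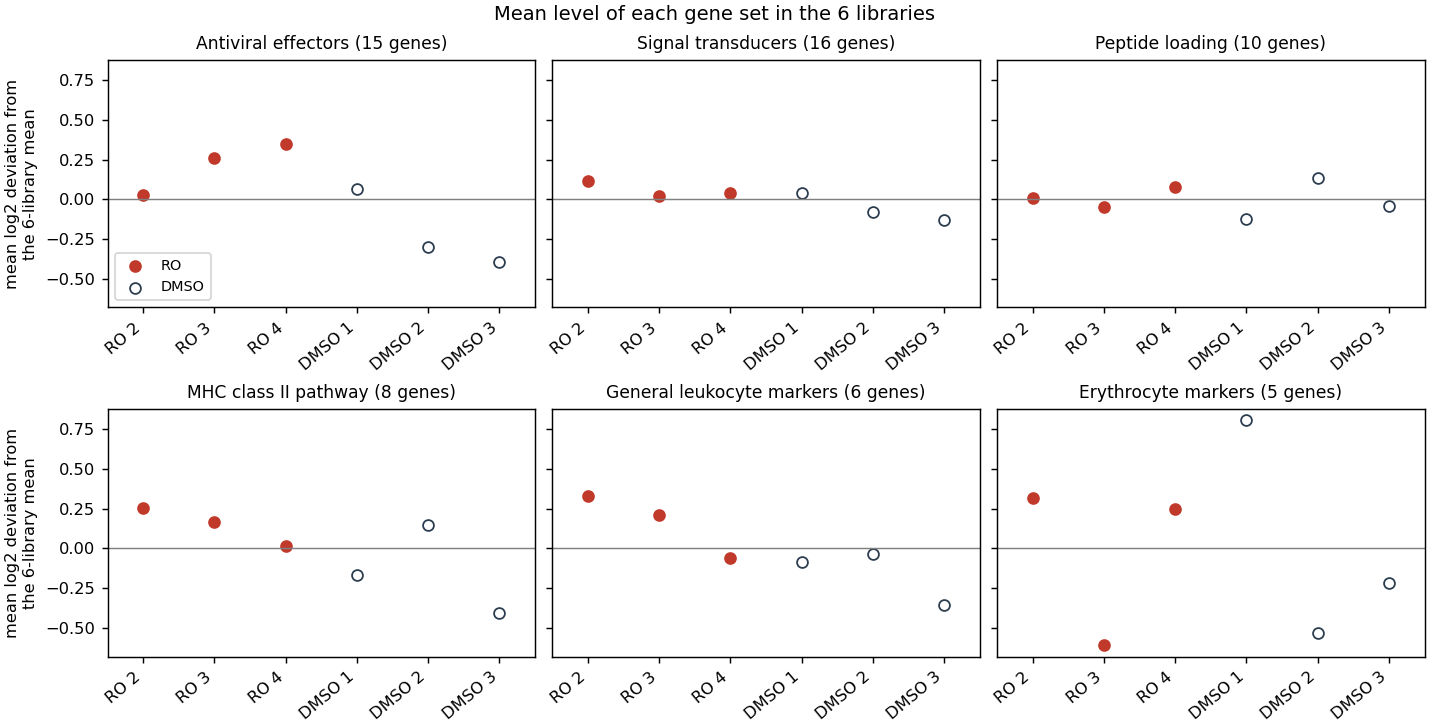
Mean log2 deviation from the mean of the 6 libraries (y axis) for 6 gene sets in each library (x axis); filled points are RO and open points DMSO. Antiviral effectors run from 0.03 to 0.35 in RO and from -0.40 to 0.07 in DMSO (0.20 to 0.30 in RO and -0.38 to -0.01 in DMSO without mxb), whereas peptide loading genes stay between -0.13 and 0.14 in all libraries.

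Markers of blood cells were summed in the same libraries. General leukocyte markers (6 measured of 8 listed) summed to 475 to 578 in RO libraries and 379 to 468 in DMSO libraries, and all 6 had a log2 difference above 0, with 0 passing. Macrophage markers (13 IDs, 11 above 0, none passing) summed to 1021 to 1316 in RO and 731 to 1083 in DMSO. Thrombocyte markers (9 IDs, 8 above 0) summed to 238 to 370 in RO and 175 to 223 in DMSO. Of the thrombocyte IDs 1 passed, higher in RO, beside 0.647% of all genes. The part of these cells in the values of the module, and in those of ctss2.1 and ifi30a, was not tested. By library the general leukocyte markers had mean deviations of 0.33, 0.21 and -0.06 in RO libraries 2, 3 and 4 and -0.08, -0.03 and -0.36 in DMSO libraries 1, 2 and 3. RO replicate 4 was the lowest RO library in these markers and the highest in the effectors, while DMSO replicate 3 was the lowest DMSO library in both. In RO libraries 2, 3 and 4 the mean deviations were 0.30, -0.15 and 0.18 for macrophage and 0.52, 0.41 and 0.06 for thrombocyte markers. They were -0.10, -0.02 and 0.16 for neutrophil and 0.17, -0.23 and 0.28 for B cell markers. RO replicate 4 was thus the highest RO library in neutrophil and B cell markers, as in the effectors. Neutrophil markers (5 measured of 10) summed to 114 to 128 in RO and 89.9 to 145 in DMSO, and B cell markers (4 of 8) to 69.8 to 85.2 in RO and 56.0 to 82.4 in DMSO.

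Erythrocyte markers (5 measured of 7) had mean deviations of 0.32, -0.61 and 0.24 in RO libraries and 0.81, -0.54 and -0.22 in DMSO libraries. DMSO replicate 1, where the effectors were high for a DMSO library, had the highest DMSO value of all 5 erythrocyte markers, all 5 neutrophil markers and 3 of 4 B cell markers. Over all genes that library was the highest DMSO library in 32.0%. The same library was the highest DMSO library in 2 of 6 general leukocyte, 5 of 13 macrophage and 0 of 9 thrombocyte markers. Its mean deviation was 0.46 for neutrophil and 0.32 for B cell markers. The part of these cells in the effector values was not tested. T cell and NK cell markers had 2 of 12 measured, summing to 13.4 to 19.1 in RO and 11.2 to 18.3 in DMSO. Endothelial markers (12 IDs, 7 above 0) summed to 826 to 956 in RO and 785 to 829 in DMSO. Of these, 2 passed higher in RO, beside 0.647% of all genes, and 0 passed lower, beside 0.387%.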

How the data were processed

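The authors deposited 1 table with a scaled signal for 14211 gene IDs in 6 libraries. Per the submitters' processing notes, the tools were RSEM 1.2.3, Bowtie2 2.0.6, edgeR, cutadapt 1.6.1 and CASAVA 1.8, with the Zv9 build. Annotation release and strand: not given in the sources used here. Overlapping and antisense genes could thus not be separated. In each library 100% of the deposited values were whole reads times 1 factor, within 0.01 read, with 0.219 to 0.298 per read and column sums of 971801 to 1036454.

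Members and lists were chosen with earlier results of these data known. Symbols came from a table of gene IDs (11589 of 14211 matched), printed as it gives them: of the member IDs, 34 matched by the same name, 5 by a synonym and 2 by the name without its paralog letter. Of the 41 member IDs, 39 are named; the other 2 enter the counts and medians and are not reported here. Values in every library are given for the 4 with the smallest p and the 2 with the highest mean of each role, and for further members chosen after their values were seen. From each other list the passing genes are named, or else the 2 with the highest mean.

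Log2(value + 0.5) was compared, RO minus DMSO, in R 4.3.3 with the trended fit of limma 3.58.1, without covariates, with Benjamini-Hochberg adjustment over all genes and a threshold of 0.05. An adjusted p with no tool beside it comes from limma. Folds are on that scale and understate changes of low genes; levels are mean ± SD, n = 3 each. The planned minimum of 1 in 3 libraries removed 0 genes. edgeR 4.0.16 (quasi-likelihood) and DESeq2 1.42.0 on the recovered reads called 156 and 240 genes. Other alternatives were pseudocounts, minimum values, quantile scaling, limma settings, a replicate block and leaving out each library. The fit was tested on simulated counts, in which all planted changes were wider than the difference of any member. That run does not tell how often changes of the members' size would be called. Libraries of a group differed by more than sampling noise (chi-square per degree of freedom 5.02 to 11.7).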

Additional observations from a re-analysis of the deposited data

How the results depend on the processing

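The count of passing genes, 147, was 1 without a trend, 405 with a replicate block, 240 with DESeq2 and 22 to 105 with 1 library left out (22 without DMSO replicate 2). The count of passing members, 0, was 1 with array weights, 1 at an adjusted p of 0.1, 4 with the replicate block (mxe, isg15, mxa and mxc) and 0 to 0 with 1 library left out. Deviations of the same-numbered libraries correlated at 0.116 and 0.091, and those of the other RO and DMSO pairs between -0.116 and 0.043. With only 2 same-numbered pairs, this cannot decide whether the numbers pair the libraries. The labels state no block, so the main fit has none. The replicate block rests on replicates 2 and 3. The adjusted p of pkz was 0.0688 to 0.229 with 1 library left out and 0.0427 to 0.171 otherwise. The effector median was 0.33 to 0.59 with 1 library left out and 0.37 to 0.53 otherwise (0.47 without mxb, added after the data were seen), and the transducer median 0.06 to 0.13. The peptide loading median was -0.087 with the replicate block and -0.0402 (without DMSO replicate 1) to 0.18 (without DMSO replicate 2) with 1 library left out. Some named genes outside the module did not pass in the main fit but passed in at least 1 alternative. These were ifi27.1, ifi27.2 and PSME3, higher in RO, and SOCS3 (ENSDARG00000025428) and mhc1uba, lower in RO. Ifi27.2 passed only with 1 library left out (smallest limma adjusted p = 0.0179). Ifi27.1, PSME3, SOCS3 and mhc1uba passed in no fit with 1 library left out. With edgeR and with DESeq2, 0 of the 15 class I genes outside the module passed, mhc1uba among them.

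Of the 41 members, 29 kept their direction under all 19 alternatives and 12 did not. Changing the minimum value or the variance model of limma (without a trend, or robust) leaves the log2 difference of a gene as it is. Those alternatives could not change a direction. The values below also cover genes outside the module that changed direction: JAK1, STAT3, STAT4, ifngr2, mhc1zba, mhc2dab and PSME4 (ENSDARG00000018742). TAP1 was 0.018 with quantile scaling. With array weights mxb was 0.16, gbp1 -0.0709, IRF5 -0.0152, JAK1 0.0451 and STAT4 0.0424. With the replicate block gbp1 was -0.0077, b2m -0.15, PSMB8 -0.14, tapbp.1 -0.12, tlr3 0.0431, irf2a 0.10, mhc2dab -0.11 and JAK1 0.18. With edgeR mxb was 0.16 and STAT4 0.0079, and with DESeq2 mxb was 0.15 and STAT4 0.0105. With 1 library left out adar was -0.22 to 0.0152, CMPK2 -0.14 to 0.48, mxb -0.86 to 0.85, gbp1 -0.10 to 0.20, b2m -0.0551 to 0.19, PSMB8 -0.0686 to 0.35, tapbp.1 -0.21 to 0.34 and TAP1 -0.14 to 0.13. Likewise tlr3 was -0.54 to 0.17, IRF5 -0.0784 to 0.19, irf2a -0.24 to 0.0533, irf2b -0.0848 to 0.10, mhc1zba -0.19 to 0.0269, mhc2dab -0.0358 to 0.34, PSME4 -0.20 to 0.0437, ifngr2 -0.0394 to 0.24, JAK1 -0.18 to 0.10, STAT3 -0.0867 to 0.30 and STAT4 -0.21 to 0.21. The cause was not tested in any of these. Members with under 100 reads in all, and groups of 3 pools, limit the precision.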

Other observations

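Mhc1uba (ENSDARG00000075963), a class I heavy chain gene, was named after its values were seen. It had 232, 162 and 0.973 in RO libraries 2, 3 and 4 and 114, 395 and 288 in DMSO libraries 1, 2 and 3. Behind these stand 831, 738 and 4 reads in RO libraries and 468, 1529 and 967 reads in DMSO libraries. RO replicate 4 was thus nearly without reads of this gene, while it had 659 for b2m and 358 for mhc1zba, beside 483 to 531 and 334 to 372 in the other RO libraries. The log2 difference of mhc1uba was -2.62 (-5.83 to 0.58; limma adjusted p = 0.491). That estimate was -3.93 to -0.28 with 1 library left out and -1.02 with edgeR. Among 2800 genes with a mean value of at least 50, it was the 1 gene whose highest and lowest library of a group differed by at least 20-fold on value + 0.5. The median of that ratio over these genes was 1.27.

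PSME3 (ENSDARG00000012234), the cap of the nuclear proteasome and a relative of PSME1 and PSME2, was also named after its values were seen. It had 59.5, 53.4 and 50.1 in RO libraries and 43.3, 38.2 and 33.0 in DMSO libraries. The groups did not overlap, and its log2 difference was 0.51 (limma adjusted p = 0.128), against 0.22 for PSME1 and 0.15 for PSME2. Xaf1 (ENSDARG00000068939), an interferon-induced cofactor of cell death, had 25.7, 21.7 and 21.2 in RO libraries and 19.7, 16.5 and 16.7 in DMSO libraries (log2 difference 0.36, adjusted p = 0.34). The interferon-induced ifi35 (ENSDARG00000075643) had 27.7, 26.5 and 24.6 in RO libraries and 22.1, 21.2 and 20.2 in DMSO libraries (0.30, adjusted p = 0.378). Both were named after their values were seen, as genes whose RO libraries all stood above the DMSO libraries. This held for 3 of the 22 other interferon-induced genes, and the reverse for 1, beside 9.32% and 9.35% of all genes.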
